A study of Mus musculus with 12 samples.

Results

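The mitochondrial lipid cardiolipin was followed through 10 genes that make it, supply its precursor or remodel its acyl chains: Tamm41, Pgs1, Ptpmt1, Crls1, Taz, Lclat1, Hadha, Pla2g6, Prelid1 and Triap1. They were taken by name, as the rows whose Ensembl ID maps to these symbols, which were 10 of the 48709 rows in each table. Taz, the tafazzin gene, was matched by its identifier ENSMUSG00000009995. All 10 genes passed the filter on low counts and were among the 14408 genes tested.

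RNA sequencing had been done on mouse embryonic fibroblasts of the C57BL/6 strain, grown in DMEM with 10% fetal bovine serum at 37 °C and 5% CO2. The 4 groups held 3 samples each: normoxic WT, normoxic TAZKo, WT kept for 24 h in a hypoxia workstation, and TAZKo kept there for the same 24 h. The series asks how cells without tafazzin differ from isogenic WT cells at each oxygen level and how each genotype responds to hypoxia. The oxygen level, the way the gene was disrupted and the origin of the cells (embryo, clone or pool) are not given in the sources used here. Nothing in the labels says that the 3 samples of a group came from separate cultures, so p-values measure only the spread between these samples, which may be technical.

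Cardiolipin sits in the inner mitochondrial membrane, where it holds respiratory chain complexes and the folds of the cristae. Its precursor phosphatidic acid is carried across the intermembrane space by Prelid1 with its small partner Triap1. Inside, Tamm41 makes CDP-diacylglycerol, Pgs1 joins it to glycerol 3-phosphate, Ptpmt1 removes a phosphate, and Crls1 completes cardiolipin. New cardiolipin is then remodelled: phospholipases such as Pla2g6 cut acyl chains off, and tafazzin puts other chains back by transfer from neighbouring phospholipids. Lclat1 and the monolysocardiolipin acyltransferase activity attributed to Hadha do so from acyl-CoA. Loss of tafazzin in people causes Barth syndrome, a disease of heart and skeletal muscle.

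Total counts ran from 21039451 to 31204510 per sample, and 3 counts, taken as the floor, corresponded to 0.0961 to 0.143 CPM, which is a count scaled to the TMM-adjusted size of its library. This floor covers counting error alone, since without molecular identifiers reads may repeat a molecule. The cardiolipin genes lay far above it, at 419 to 8907 counts per sample. WT normoxia sample 1 stood apart, at 35.7 on the third principal component against -13.4 to 10.5 for the other 11, so results that rest on it are also given without it. Of 10 fibroblast markers, 9 were above the floor in every library and the list summed to 10394 to 13310 CPM, while Thy1 lay around the floor, at group means of 0.116 to 0.215 CPM. Summed epithelial markers (6 genes) lay at 226 to 292 CPM in WT normoxia, 150 to 166 in TAZKo normoxia, 554 to 567 in WT hypoxia and 402 to 436 in TAZKo hypoxia, with Cldn4 at or under the floor. Krt18 and Krt19 made up nearly all of this sum. Mean Krt19 was 116, 56.5, 434 and 300 CPM in these groups in the same order, and mean Krt18 was 132, 99.8, 126 and 123 CPM. Group means of Epcam and Cdh1 were at most 0.440 CPM. Mean Krt8 was lower in WT hypoxia than in WT normoxia. The rise of the sum with hypoxia in WT was thus that of Krt19. Endothelial markers (5 genes) summed to 14.5 to 21.01 CPM in the libraries labelled WT and 3.84 to 7.48 in those labelled TAZKo, with Cdh5 and Emcn at or under the floor. Tek contributed the most, while Pecam1 was higher in TAZKo normoxia (mean 0.577 CPM) than in WT normoxia (0.227). Muscle markers (5 genes, with Myh6, Actn2, Myod1 and Ckm at or under the floor) summed to 1.01 to 2.10 CPM in normoxia and 7.85 to 12.2 in hypoxia. Leukocyte markers (5 genes, with Ptprc, Adgre1 and Tyrobp at or under the floor) summed to 4.42 to 5.57 CPM in normoxia and 7.99 to 13.8 in hypoxia. Neural markers (4 genes, with Sox10 at or under the floor) summed to 33.3 to 61.4 CPM in WT and 22.5 to 37.2 in TAZKo. Members of a list did not all move together: of the tested fibroblast markers, 5 were called higher and 2 lower in TAZKo in normoxia. Most of the sums thus differ with genotype, oxygen level or both, and their part in the results was not tested. In RNA from whole cultures, fewer cells of a type and less RNA per cell cannot be told apart.

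The targeted gene was read first. Taz lies on chromosome X from 74281912 to 74290151 on the forward strand (GRCm38, GENCODE M21). It gave 38.0, 33.3 and 32.7 CPM in WT normoxia, and 45.8, 39.8 and 41.0 CPM in TAZKo normoxia. In hypoxia it gave 25.5, 26.4 and 23.5 CPM in WT and 33.6, 32.8 and 35.1 CPM in TAZKo. Every library labelled TAZKo thus lay above every library labelled WT at the same oxygen level, which goes against the label if the disruption, of a kind not given, were meant to remove the transcript. A gene count holds no information on which exons were read, so genotypes are called by their labels throughout. No 50-base word of the longest Taz transcript occurs in another annotated gene. Wwtr1, a transcriptional coactivator on chromosome 3 that is also called TAZ, showed no such difference: its means were 206 CPM in both normoxia groups (log2 difference 0.00, edgeR adjusted p = 0.999), and -0.14 separated the genotypes in hypoxia (edgeR adjusted p = 0.337).

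Levels between genes were compared per kilobase of exon. In WT normoxia Prelid1 was highest at 58.3 ± 8.22 CPM per kb (SD, n = 3), then Hadha at 29.9 ± 0.818, Triap1 at 24.7 ± 0.744 and Crls1 at 19.5 ± 4.80. Pgs1 (14.6 ± 1.67) and Pla2g6 (14.0 ± 1.73) followed, and their values did not differ beyond their spread. The lowest were Lclat1 at 10.2 ± 1.37, Ptpmt1 at 6.85 ± 0.357, Taz at 6.46 ± 0.545 and Tamm41 at 5.43 ± 0.940. By this measure Tamm41, Taz and Ptpmt1 were thus the lowest and Prelid1 the highest. The measure divides by all annotated exon bases, which for Taz were 5364 against 2891 in its longest transcript. For Triap1 both were 1088, so the order may depend on the annotation. Prelid1 and Ptpmt1 share exon bases with genes on the opposite strand, as given below, and their levels are uncertain.

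**Figure D1:**
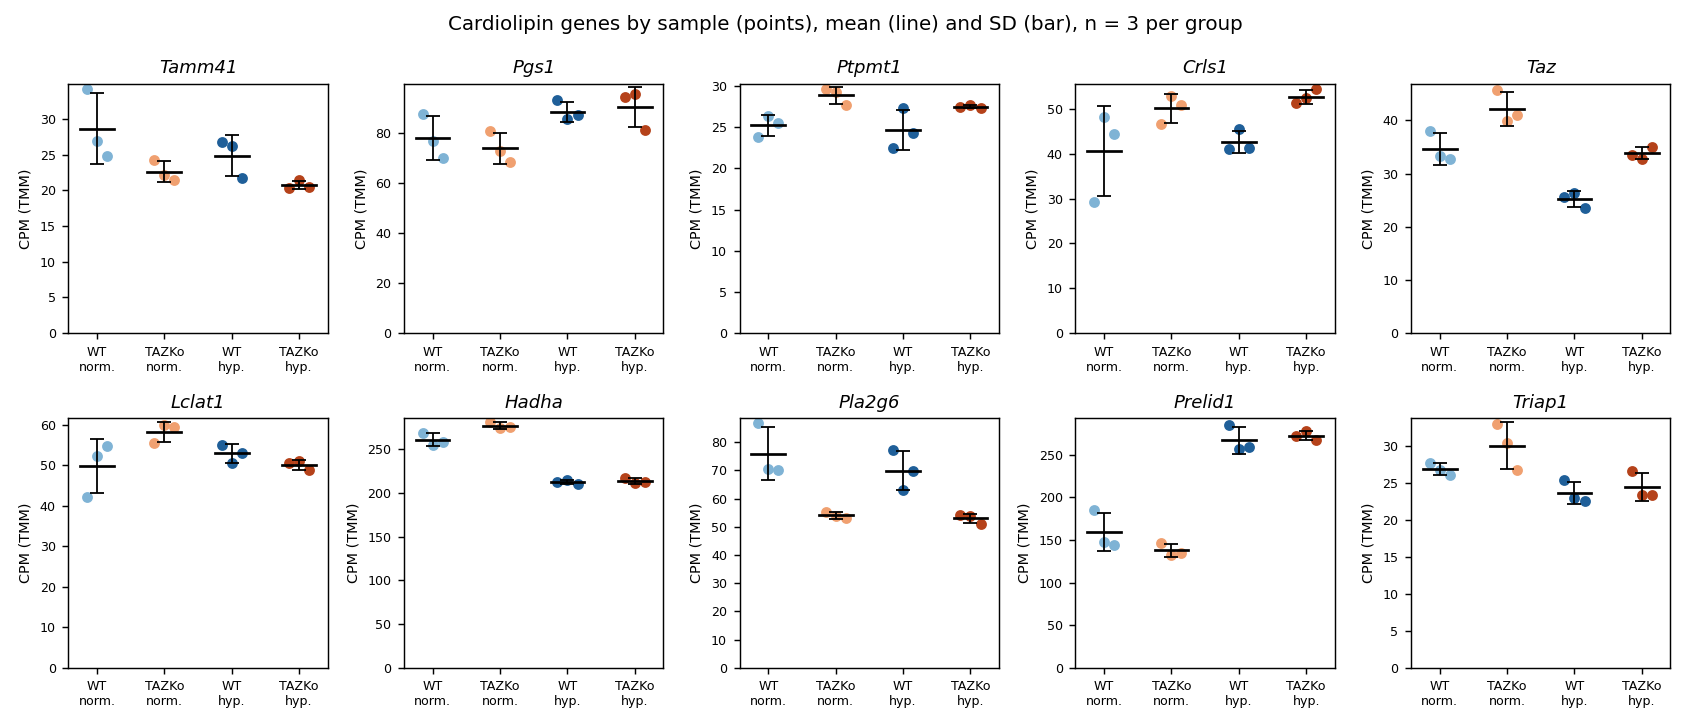
Each panel plots 1 cardiolipin gene in CPM (y axis, from 0) for the 4 groups (x axis), with 1 point per sample, the mean as a line and the SD as a bar (n = 3). Prelid1 rises from 144 to 185 CPM in WT normoxia to at least 256 CPM in every hypoxic sample, and Pla2g6 is lower in all 6 TAZKo samples (51.1 to 55.4 CPM) than in all 6 WT samples (63.1 to 86.7 CPM).

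In normoxia, 3 of the 10 genes differed between the libraries labelled TAZKo and WT at an edgeR adjusted p under 0.05: Taz was higher, and Pla2g6 and Tamm41 were lower. Among all 14408 genes 30.4% were called in this comparison (15.6% higher and 14.9% lower in TAZKo), so the share of cardiolipin genes was at the background. Their median log2 difference was 0.12 and the median over all genes 0.01, with median sizes of 0.21 and 0.20. The samples of the groups did not overlap for 6 of the 10, against 42.8% of all genes.

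Pla2g6 encodes the calcium-independent phospholipase A2 beta, which hydrolyses acyl chains of phospholipids including cardiolipin. It gave 86.7, 70.6 and 70.3 CPM in WT normoxia against 55.4, 53.7 and 53.0 CPM in TAZKo normoxia. The lowest WT sample lay well above the highest TAZKo sample. The log2 difference was -0.49 (SE 0.0883, edgeR adjusted p = 0.000875), or 0.713-fold. In all 12 fits that left out 1 sample and all 9 other settings it was called.

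Tamm41, at the start of synthesis inside mitochondria, gave 34.2, 26.9 and 24.8 CPM in WT and 24.2, 22.2 and 21.4 CPM in TAZKo. Its groups did not overlap but nearly touched, with WT sample 1 far above the others. The log2 difference was -0.34 (SE 0.114, edgeR adjusted p = 0.0365). Without WT normoxia sample 1 it was -0.19 and was not called (edgeR adjusted p = 0.117), nor was it called without TAZKo normoxia sample 2 (-0.36, edgeR adjusted p = 0.0662) or 3 (-0.34, edgeR adjusted p = 0.0891). The Taz difference was 0.29 (SE 0.0786, edgeR adjusted p = 0.0139), and it too was not called without TAZKo normoxia sample 1 (0.19, edgeR adjusted p = 0.106), WT normoxia sample 2 (0.23, edgeR adjusted p = 0.0777) or WT normoxia sample 3 (0.21, edgeR adjusted p = 0.0889).

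For the other 7 genes the normoxia difference was not called. Crls1, cardiolipin synthase, gave 29.3, 48.2 and 44.5 CPM in WT and 46.7, 52.8 and 50.8 CPM in TAZKo, with WT sample 1 far below the rest (log2 difference 0.30, edgeR adjusted p = 0.107). Lclat1 gave 42.2, 52.2 and 54.8 CPM in WT and 55.4, 59.9 and 59.3 CPM in TAZKo (0.23, edgeR adjusted p = 0.058). These groups did not overlap. Ptpmt1 gave 23.8, 26.4 and 25.6 CPM against 29.7, 29.3 and 27.7 CPM, also without overlap (0.19, edgeR adjusted p = 0.0696). Samples with the same number deviated together in this comparison, and samples 2 and 3 also did so across numbers, so pairing by number is not established. With the replicate number as a block 7 of the 10 genes were called. The added genes were Lclat1 (0.23, edgeR adjusted p = 0.0392), Ptpmt1 (0.19, edgeR adjusted p = 0.0437), Crls1 (0.31, edgeR adjusted p = 0.0313) and Prelid1 (-0.20, edgeR adjusted p = 0.0284). Without WT normoxia sample 1 and without the block, the values shrank to 0.12 for Lclat1, 0.11 for Crls1 and -0.08 for Prelid1, and none was called. Hadha, Pgs1 and Triap1 were called neither with nor without the block, at log2 differences of 0.09, -0.08 and 0.16.

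After 24 h of hypoxia, 2 of the 10 genes differed between genotypes, against 32.8% of all genes (15.8% higher and 16.9% lower in TAZKo). Taz was again higher in the libraries labelled TAZKo, by 0.43 (SE 0.0805, edgeR adjusted p = 0.00112), and Pla2g6 was lower (-0.40 on the log2 scale, SE 0.0886, adjusted p = 0.00344 by edgeR). Pla2g6 gave 77.1, 63.1 and 69.7 CPM in WT and 54.1, 53.7 and 51.1 CPM in TAZKo, again with no overlap. Both were called in all 12 fits that left out 1 sample and in all 9 other settings.

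The groups did not overlap for 4 of the 10 genes in hypoxia, against 50% of all genes. The other pair were Tamm41 and Crls1. Crls1 gave 41.1, 45.5 and 41.2 CPM in WT hypoxia and 51.2, 52.5 and 54.4 CPM in TAZKo hypoxia (log2 difference 0.31, SE 0.133, edgeR adjusted p = 0.0936). Tamm41 gave 26.8, 26.2 and 21.7 CPM against 20.4, 21.4 and 20.4 CPM (-0.26, edgeR adjusted p = 0.106). Because all 12 samples share 1 estimate of the spread, WT normoxia sample 1 bears on this comparison too, and without it both were called, Crls1 at 0.31 (edgeR adjusted p = 0.00106) and Tamm41 at -0.26 (edgeR adjusted p = 0.0218). Without WT hypoxia sample 3 Tamm41 was called at -0.36 (edgeR adjusted p = 0.0414), and Ptpmt1, at 0.15 with all samples (edgeR adjusted p = 0.147), was called in 1 of the 12 fits that left out 1 sample, without WT hypoxia sample 2 (0.22, edgeR adjusted p = 0.0465), and in 0 of 9 other settings. For Hadha, Pgs1, Triap1 and Prelid1 the genotypes were within 0.05 of each other on the log2 scale, with 95% intervals of at most -0.17 to 0.24.

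The medians over the genes of each of the 8 chromosomes that carry cardiolipin genes lay between -0.07 and 0.06 in the genotype comparisons.

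**Figure D2:**
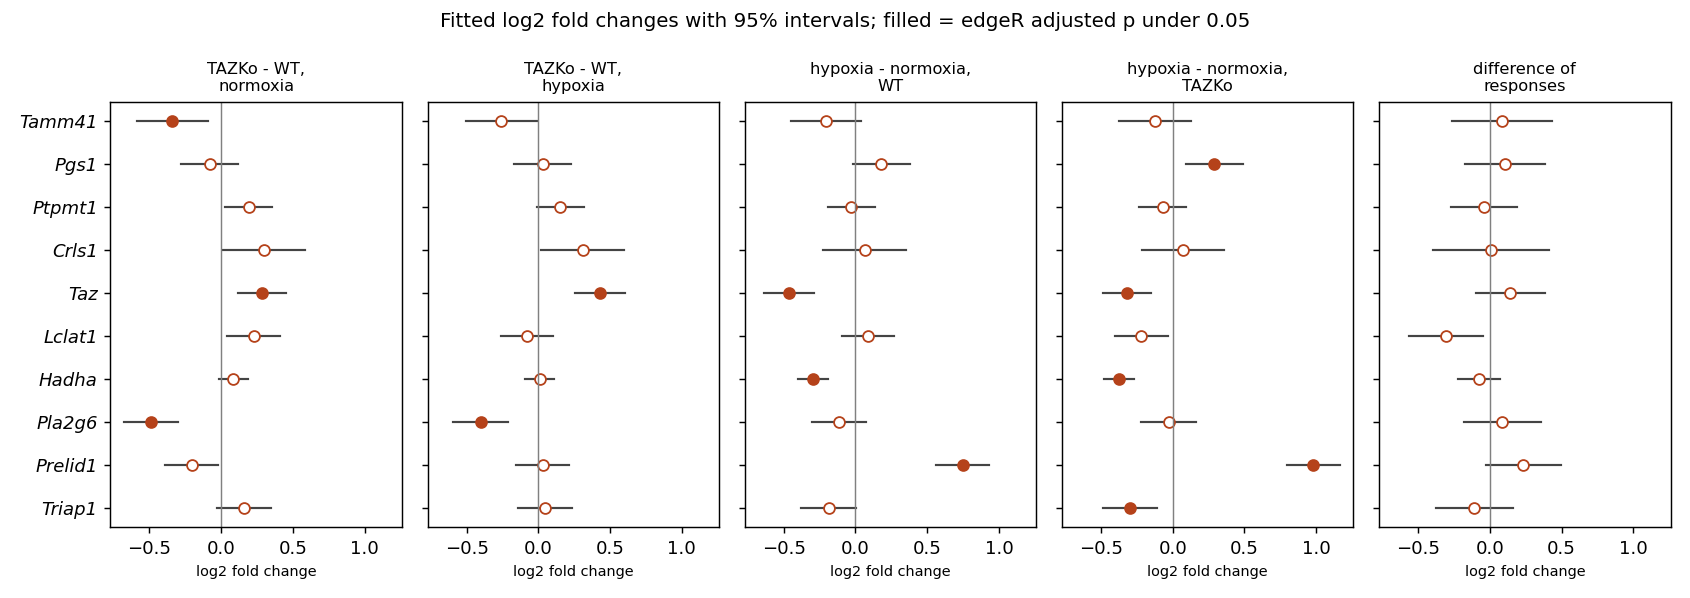
Each panel plots, for 1 comparison, the fitted log2 fold change (x axis) of each cardiolipin gene (y axis) with its 95% interval. Filled points passed an edgeR adjusted p of 0.05. Prelid1 stands alone on the right in both hypoxia panels (0.75 and 0.98), and no point is filled in the panel of differences between responses.

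Of a check list of 8 genes known to be induced by hypoxia, 8 rose in WT and 7 in TAZKo. Of the 10 cardiolipin genes, 3 changed with hypoxia in WT: Prelid1 rose, and Taz and Hadha fell. Among all genes 51% were called (26% higher and 25% lower). In TAZKo 5 changed, Prelid1 and Pgs1 upward and Taz, Hadha and Triap1 downward, against 43.8% of all genes (22.2% higher and 21.6% lower). No cardiolipin gene changed by a log2 value of 1 or more, called or not. Among all genes, 1610 in WT and 1216 in TAZKo changed by that size and were called. The median sizes of change were 0.18 in WT and 0.25 in TAZKo for these genes, and 0.31 and 0.26 for all genes. Normoxic and hypoxic samples did not overlap for 4 of the 10 in WT (54.6% of all genes) and 6 of the 10 in TAZKo (61.1%).

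Prelid1 had the largest response of the 10. It gave 185, 148 and 144 CPM in WT normoxia against 285, 256 and 259 CPM in WT hypoxia, and 147, 132 and 135 CPM in TAZKo normoxia against 273, 278 and 267 CPM in TAZKo hypoxia. Every hypoxic sample lay above every normoxic sample. The log2 change was 0.75 in WT (SE 0.086, edgeR adjusted p = 8.48e-06), or 1.68-fold, and 0.98 in TAZKo (SE 0.0863, edgeR adjusted p = 1.07e-06), or 1.97-fold. Prelid1 shares exons with Rab24 on the opposite strand: 46.1% of its exon bases lie in Rab24 exons. The library kit does not mark strand, so reads of these genes cannot be told apart there, and the levels of both are uncertain. Rab24 itself rose by 0.31 in WT and 0.28 in TAZKo (edgeR adjusted p = 0.0128 and 0.0251), values below those of Prelid1.

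Triap1, the partner that stabilises Prelid1 in the intermembrane space, did not rise with it. It gave 27.7, 26.8 and 26.1 CPM in WT normoxia and 25.4, 22.9 and 22.5 CPM in WT hypoxia (log2 change -0.19, SE 0.0886, edgeR adjusted p = 0.0949). In TAZKo it gave 32.9, 30.3 and 26.6 CPM in normoxia and 26.6, 23.3 and 23.3 CPM in hypoxia, and its log2 change of -0.30 passed the test (SE 0.0875, edgeR adjusted p = 0.014). With the replicate block, where same-numbered WT samples deviated together, the WT change was called (-0.19, edgeR adjusted p = 0.0268). It was also called in 8 of the 12 fits that left out 1 sample, at values down to -0.29.

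The read ratio of Prelid1 to Triap1, not corrected for length and chosen after the values were seen, is a description of the same values. It was 5.53, 5.54 and 6.68 in WT normoxia, in rising order, and 11.2, 11.2 and 11.5 in WT hypoxia. In TAZKo it was 4.37, 4.45 and 5.07 in normoxia and 10.2, 11.5 and 11.9 in hypoxia. No normoxic ratio reached a hypoxic one, as the Prelid1 values alone would give.

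The rest of the PRELI family, named here after its values were seen, moved in different directions. Prelid3b, which with Triap1 carries phosphatidylserine, had means of 108, 92.2, 88.0 and 78.6 CPM in WT normoxia, TAZKo normoxia, WT hypoxia and TAZKo hypoxia, and changed with hypoxia by -0.29 in WT and -0.23 in TAZKo (edgeR adjusted p = 0.00196 and 0.0119). Prelid2, a family member on chromosome 18, had the widest range. It gave 4.73, 5.53 and 5.00 CPM in WT normoxia and 36.3, 39.2 and 36.5 CPM in WT hypoxia. The TAZKo samples gave 2.44, 1.78 and 2.01 CPM in normoxia and 8.17, 7.23 and 8.71 CPM in hypoxia. Prelid3a, also on chromosome 18, lay between 2.27 and 5.32 CPM. It was lower in TAZKo, by log2 differences of -0.55 in normoxia and -0.74 in hypoxia (edgeR adjusted p = 0.00586 and 0.00114), and changed with hypoxia by -0.40 in TAZKo (edgeR adjusted p = 0.0363).

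**Figure D3:**
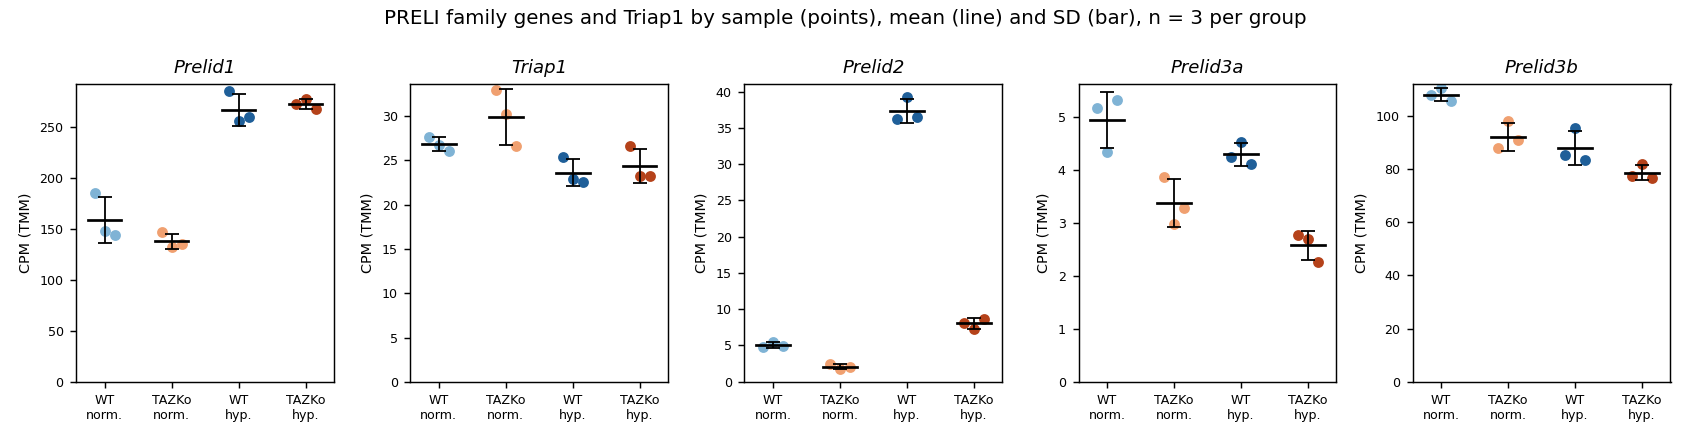
Each panel plots CPM (y axis, from 0, on its own scale) of a PRELI family gene or Triap1 by group (x axis), with points for samples, a line for the mean and a bar for the SD (n = 3). Prelid1 and Prelid2 are higher in hypoxia in both genotypes, Triap1 and Prelid3b have lower means there, and Prelid2 reaches 39.2 CPM in WT but 8.71 CPM in TAZKo.

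The sequence before the start of each gene was searched for the core of the hypoxia response element, ACGTG or GCGTG on either strand, because hypoxia was the treatment. RefSeq windows of 250 bases before the start (GRCm38.p6) were found for 9 of the 10 genes, with a pair of starts for Crls1. Cores occurred in 5 of the 9: Prelid1, Triap1, Crls1, Pla2g6 and Lclat1. The share over 32817 windows of all genes was 38.6% (16.6% for ACGTG and 28.1% for GCGTG). That share is per window, while the count of 5 is per gene, and the second Crls1 window held no core. The windows with a core thus belong to Prelid1, which rose, to Triap1, which fell in TAZKo, and to Crls1, Pla2g6 and Lclat1, for which no hypoxia change was called. A match is a description of letters and not a binding site. The 30 bases around each core are shown with the core in capitals; CACGTG holds ACGTG on both strands, and CACGT and CACGC are ACGTG and GCGTG read on the other strand.
Prelid1, chr13:55321961-55321990, forward strand: gggacgcccggtCACGTGacgcgggcgccg
Crls1, chr2:132846451-132846480, forward strand: gcttcctgtggcCACGTGgcactcgctctt
Triap1, chr5:115340987-115341016, forward strand: ttaccgcgggggaCACGCgaccgctgccct
Triap1, chr5:115341014-115341043, forward strand: cctgggggacgagACGTGgagcctgggtcc
Pla2g6, chr15:79328495-79328524, reverse strand: tgccctttatcaaCACGTcagccaaactgc
Pla2g6, chr15:79328433-79328462, reverse strand: ggcccccatcagcCACGCagaattggcttc
Lclat1, chr17:73107935-73107964, forward strand: ttcaagggcttccCACGCagccggagacgc
The capitals begin 82 bases before the start for Prelid1, 203 for Crls1, 231 and 204 for Triap1, 140 and 78 for Pla2g6, and 37 for Lclat1. The whole Prelid1 window also lies in an exon of a longer annotated Prelid1 transcript, and 169 of the 250 bases before Triap1 are coding sequence of its neighbour Gatc on the opposite strand. The NRF1 motif, a mark of nuclear genes for mitochondria, was found before Pgs1 alone among the 9, 58 bases from the start, against 3.7% of all windows. All 250 bases of that window lie in an annotated Pgs1 exon. Exons of their own genes also hold 208 bases of the Ptpmt1 window and 182 of the Hadha window.

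Taz and Hadha fell with hypoxia in both genotypes. The Taz values above correspond to log2 changes of -0.46 in WT (SE 0.0806, edgeR adjusted p = 0.000308) and -0.32 in TAZKo (SE 0.0785, edgeR adjusted p = 0.00476), with no overlap between normoxia and hypoxia in either. Dnase1l1, which overlaps the span of Taz on the opposite strand but shares no exon base with it, rose by 0.64 in WT and 0.54 in TAZKo (edgeR adjusted p = 0.000137 and 0.000574). With hypoxia Taz therefore moved against this neighbour. Between genotypes Dnase1l1 differed in the direction of Taz, by 0.28 in normoxia and 0.17 in hypoxia (edgeR adjusted p = 0.0559 and 0.197). Atp6ap1, the nearest gene after Taz, also rose with hypoxia, by 0.49 in WT and 0.61 in TAZKo. Its genotype differences were 0.08 in normoxia and 0.20 in hypoxia (edgeR adjusted p = 0.418 and 0.0453). The genes whose pattern over the 12 samples was nearest to that of Taz were Iqce, Mavs and Dnlz, at root mean square distances of 0.0596, 0.0608 and 0.0650 in centred log2 CPM, where the median over all genes was 0.375. The Taz window is shown whole, since Taz was called in 4 comparisons and the window holds neither motif. It lies before a RefSeq start but inside the annotated span of Taz given above, and 21 of its bases lie in a Taz exon.
Taz, chrX:74282468-74282717, forward strand: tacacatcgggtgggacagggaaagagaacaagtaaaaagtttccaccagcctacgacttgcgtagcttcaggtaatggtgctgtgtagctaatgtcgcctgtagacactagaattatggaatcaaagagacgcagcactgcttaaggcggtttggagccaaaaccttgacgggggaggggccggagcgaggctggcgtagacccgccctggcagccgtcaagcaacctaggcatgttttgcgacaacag

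Hadha, the alpha subunit of the trifunctional protein of fatty acid oxidation, gave 269, 255 and 259 CPM in WT normoxia and 213, 215 and 210 CPM in WT hypoxia. In TAZKo it gave 282, 274 and 275 CPM in normoxia and 217, 212 and 212 CPM in hypoxia. The oxygen levels did not overlap in either genotype. The log2 change was -0.30 in WT (SE 0.0476, edgeR adjusted p = 0.000154) and -0.37 in TAZKo (SE 0.0476, edgeR adjusted p = 3.03e-05). Its partner subunit gene Hadhb, which starts 85 bases away on the other strand, was lower per kilobase in WT normoxia (2.47 ± 0.261 against 29.9 ± 0.818 CPM per kb for Hadha, SD, n = 3). For Hadhb the WT change was -0.21 (SE 0.0845, adjusted p = 0.052 by edgeR), and it fell by 0.31 on the log2 scale in TAZKo (SE 0.0846, edgeR adjusted p = 0.00891).

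Among synthesis genes, Pgs1, which makes phosphatidylglycerophosphate, gave 80.7, 72.7 and 68.4 CPM in TAZKo normoxia and 94.3, 95.4 and 81.3 CPM in TAZKo hypoxia. These ranges nearly touched. The log2 change of 0.29 (SE 0.0917, edgeR adjusted p = 0.0202) was not called without TAZKo hypoxia sample 1 (0.23, edgeR adjusted p = 0.103) or 2 (0.22, edgeR adjusted p = 0.117), or TAZKo normoxia sample 2 (0.25, edgeR adjusted p = 0.0825) or 3 (0.21, edgeR adjusted p = 0.131). With library size alone as the scaling it was 0.19 and not called (edgeR adjusted p = 0.106). In WT Pgs1 gave 87.5, 76.9 and 69.9 CPM in normoxia and 93.1, 85.5 and 87.0 CPM in hypoxia (0.18, edgeR adjusted p = 0.116). The WT change was called with the replicate block (0.19, edgeR adjusted p = 0.0189), which brought the WT count to 5, and without WT normoxia sample 1 (0.27, edgeR adjusted p = 0.0133).

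Crls1, Ptpmt1, Tamm41 and Pla2g6 had hypoxia changes between -0.20 and 0.07 in either genotype, none of them called. The WT change of Tamm41 was -0.36 and called without WT normoxia sample 3 (edgeR adjusted p = 0.0183), and that of Pla2g6 was -0.24 and called without WT hypoxia sample 1 (edgeR adjusted p = 0.0384). With library size alone both were called in WT, at -0.31 and -0.23, and Tamm41 also without the filter, at -0.28. Ptpmt1 shares 45.0% of its exon bases with Kbtbd4 on the opposite strand, so its level is uncertain. Lclat1 gave 55.4, 59.9 and 59.3 CPM in TAZKo normoxia and 50.5, 51.0 and 48.7 CPM in TAZKo hypoxia without overlap, and just missed the threshold (-0.22, SE 0.0843, edgeR adjusted p = 0.051). It was called in 8 of 9 other settings and in 7 of the 12 fits that left out 1 sample. In WT it gave 55.1, 50.5 and 53.1 CPM in hypoxia, overlapping normoxia (0.09, edgeR adjusted p = 0.411).

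The hypoxia responses of the genotypes were compared directly, as the difference of TAZKo minus WT responses. By the edgeR test 0 of the 10 genes differed, as with DESeq2, against 2.43% of all genes (0.722% upward and 1.71% downward in TAZKo relative to WT). At an unadjusted p under 0.05 there was 1, Lclat1, whose responses differed by -0.31 (95% interval -0.56 to -0.05, edgeR adjusted p = 0.223). For Prelid1 the difference was 0.23 (95% interval -0.03 to 0.50, edgeR adjusted p = 0.381), and for Taz 0.14 (-0.10 to 0.39, edgeR adjusted p = 0.587). Among the other 7 the interval was narrowest for Hadha (-0.22 to 0.07) and widest for Crls1 (-0.40 to 0.41).

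Genes around the pathway were counted by list, beside the 30.4% (normoxia) and 32.8% (hypoxia) of all genes called between genotypes and the 51% (WT) and 43.8% (TAZKo) called with hypoxia. The list named CDP-diacylglycerol supply holds enzymes that act on glycerol 3-phosphate, phosphatidic acid or CDP-diacylglycerol, with related acyltransferases. It includes the Lpin genes, which use up phosphatidic acid rather than supply it. Of its 20 genes 17 were tested. Between genotypes 6 of the 17 were called in normoxia (2 higher and 4 lower in TAZKo) and 11 in hypoxia (5 higher and 6 lower). Gpat3, a glycerol-3-phosphate acyltransferase, was higher in TAZKo by 1.28 in normoxia and 0.71 in hypoxia (edgeR adjusted p = 6.44e-07 and 4.56e-05). Of its 50-base words 19.5% also occur in other annotated genes, so its level is less certain. With hypoxia 6 rose and 6 fell in each genotype. The phosphatidic acid phosphatase Lpin1 rose by 2.02 in WT and 1.49 in TAZKo, and the acyltransferase Mboat2 by 1.63 and 1.59 (edgeR adjusted p from 5.68e-10 to 1.55e-07). Median log2 changes of the list were 0.01 in WT and 0.06 in TAZKo.

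Of 19 tested genes for lipid transfer and membrane scaffolds of mitochondria, 1 was higher and 7 lower in TAZKo in normoxia, and 2 higher and 6 lower in hypoxia. With hypoxia 2 rose and 10 fell in WT, and 1 rose and 10 fell in TAZKo, with median log2 changes of -0.26 and -0.22. Nme4, a kinase that moves cardiolipin to the outer membrane, was lower in TAZKo (log2 difference -0.83 in normoxia and -0.62 in hypoxia), and changed with hypoxia by -0.78 in WT and -0.57 in TAZKo (largest edgeR adjusted p = 0.00209). Oma1, an inner membrane protease, fell with hypoxia by 0.79 on the log2 scale in WT and 0.68 in TAZKo. Prelid2 differed between genotypes by -1.29 in normoxia and -2.22 in hypoxia.

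Deacylation and turnover of cardiolipin had 8 of 13 genes tested, of which 4 changed with hypoxia in each genotype, 2 in each direction. These shares are near those of all genes. Between genotypes 2 were higher and 2 lower in TAZKo in normoxia, and 2 higher and 1 lower in hypoxia. Abhd18, with 14.2% of its 50-base words also in other annotated genes, rose with hypoxia by 1.53 in WT and 0.66 in TAZKo (edgeR adjusted p = 1.82e-06 and 0.00309). Gpx4, which reduces oxidised phospholipids, was higher in TAZKo by 0.25 and 0.31, but 61.7% of its 50-base words also occur in other annotated genes, and its level is uncertain.

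**Figure D4:**
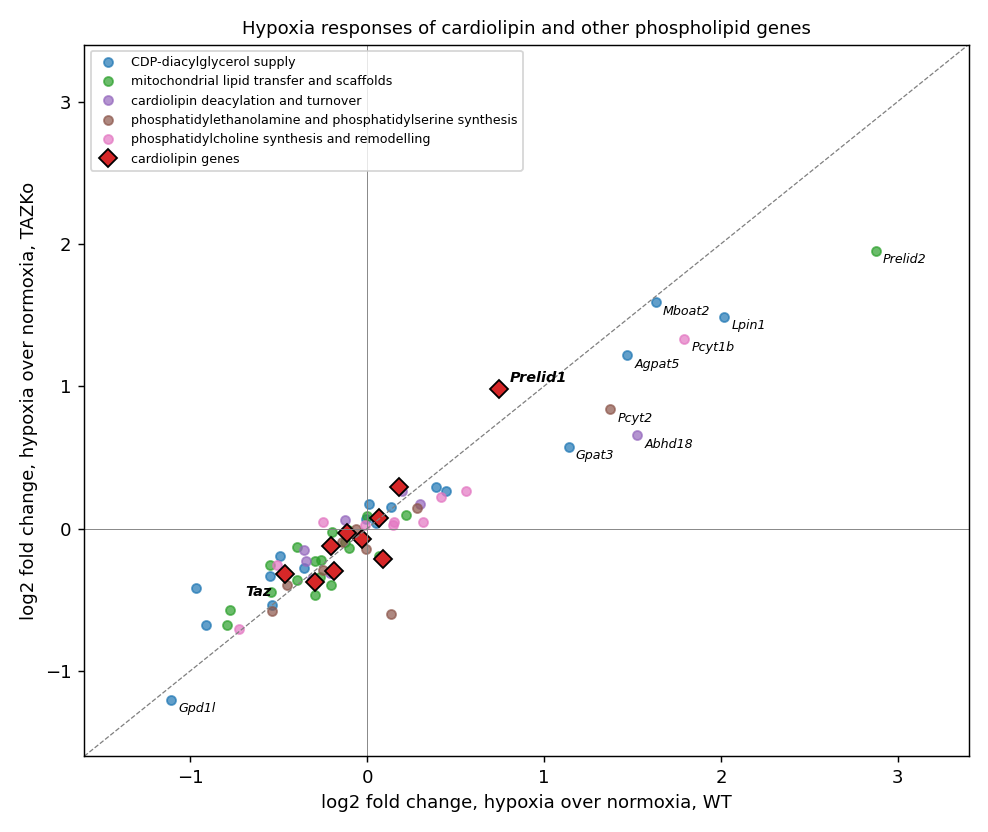
Each point is a gene, placed by its log2 fold change with hypoxia in WT (x axis) and in TAZKo (y axis), with cardiolipin genes as diamonds, other phospholipid genes as circles coloured by list, and a dashed line of equal response. All diamonds except Prelid1 lie between -0.46 and 0.29, while Lpin1, Mboat2, Agpat5, Pcyt1b and Prelid2 reach values over 1 in both genotypes.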

How the data were processed

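The 12 tables of raw read counts per gene were deposited by the authors, and they were mapped to mm10 per the submitters' processing notes. The aligner, the counter and its strand setting are not given in the sources used here. The members and gene lists were chosen with earlier results of these data known. Symbols, positions and exon lengths came from GENCODE M21 (GRCm38) and promoter windows from RefSeq.

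Samples were grouped by genotype and oxygen level. Counts were tested with edgeR 4.0.16 (R 4.3.3, limma 3.58.1): filterByExpr (minimum count 10), TMM scaling, 1 coefficient per group over all 12 samples and quasi-likelihood tests, with p-values adjusted by Benjamini-Hochberg over 14408 genes. DESeq2 1.42.0 was an alternative. The biological coefficient of variation was 8.62%. Standard errors were taken as the log2 fold change over the root of F, and 95% intervals from the t distribution. The code was tested on simulated data. No 2 tables were identical.

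Deviations from group means correlated between samples with the same replicate number in the labels. This held in the normoxia genotype comparison (r 0.15 to 0.35) and in the WT hypoxia comparison (0.15 to 0.37). Samples 2 and 3 also correlated across numbers, at r 0.11 and 0.12 in the former and 0.15 and 0.18 in the latter. Pairing by number is therefore not established, and the numbers served as a block in an alternative fit only. Flow cell lanes, as the table names give them, differed within groups. All 13 called values of cardiolipin genes kept their sign within both lanes. Groups without overlap must do so, and none of these 13 overlapped, so this is no test of a lane effect. Named were all 10 cardiolipin genes, Wwtr1 and the 3 genes nearest to Taz in pattern. Per other list and comparison, up to 4 called genes with the largest change were named. Of the neighbours only Rab24, Kbtbd4, Dnase1l1, Atp6ap1, Hadhb and Gatc were named. Other neighbours, some with called differences, were left out. Prelid3b was added after its values were seen. Other settings were other scalings, no filter, DESeq2, the replicate block, a lane term, only the groups compared, and leaving out each sample.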

Additional observations from a re-analysis of the deposited data

Results flagged for a closer look

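For 6 genes of the surrounding phospholipid lists the hypoxia response differed between genotypes by the edgeR test of the difference itself, and none of the 10 cardiolipin genes was among them. They were 2 of 17 tested genes of CDP-diacylglycerol supply, 1 of 19 of mitochondrial lipid transfer, 1 of 8 of deacylation, 1 of 9 of phosphatidylethanolamine and phosphatidylserine synthesis and 1 of 10 of phosphatidylcholine synthesis, against 2.43% of all genes. Values are log2 differences of TAZKo minus WT responses. For Prelid2 it was -0.92 (SE 0.166, edgeR adjusted p = 0.00998), from rises of 2.87 in WT and 1.95 in TAZKo. For Pcyt1b, a CDP-choline enzyme of phosphatidylcholine synthesis, it was -0.46 (SE 0.0828, edgeR adjusted p = 0.0103), from rises of 1.79 and 1.33. For the diacylglycerol kinase Dgkz, which makes phosphatidic acid, it was 0.55 (SE 0.101, edgeR adjusted p = 0.0119), from changes of -0.97 and -0.42. These 3 were called in 20 of 20 other fits.

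The other 3 were called less steadily. For Pcyt2, the CDP-ethanolamine enzyme of phosphatidylethanolamine synthesis, the difference was -0.53 (SE 0.121, edgeR adjusted p = 0.0342), from rises of 1.37 and 0.84, and it was called in 8 of 20 other fits. For Gpat3 it was -0.56 (SE 0.136, edgeR adjusted p = 0.0464), from rises of 1.14 and 0.58, called in 3 of 20. For Abhd18 it was -0.87 (SE 0.213, edgeR adjusted p = 0.05, just under the threshold), from rises of 1.53 and 0.66, called in 7 of 20. Gpat3 and Abhd18 share words with other genes, as given above.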

How the results depend on the processing

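Of 440 values of cardiolipin genes under other settings, 400 kept their direction and side of the threshold, 30 gained a call, 3 lost one and 7 changed sign. With 1 sample left out, the numbers were 543, 27, 10 and 20 of 600. The cause of these changes was not tested. The count of cardiolipin genes called between genotypes in normoxia (3) was 5 without the filter, 7 with the replicate block and 1 with only the 6 samples compared, and 2 to 4 with 1 sample left out. In hypoxia (2) it was 4 with the replicate block and 4 with only the 6 samples compared, and 2 to 4 with 1 sample left out. For the WT hypoxia response (3) it was 6 with library size alone, 5 without the filter and 5 with the replicate block, and 3 to 5 with 1 sample left out. For TAZKo (5) it was 4 to 6.

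Genes whose responses differed between genotypes (350) numbered 727 without the filter, 574 with DESeq2 and 639 with the replicate block, and 174 to 711 with 1 sample left out. The share with a higher value was 29.7%, 55.0% without the filter, 41.8% with DESeq2, 42.6% with the block and 40.7% with upper quartile scaling. Under library size alone the median gene shifted from 0.0089 to -0.0973 in the WT and from -0.0088 to -0.103 in the TAZKo hypoxia response, and the share of calls that were higher from 51.0% to 38.1% in WT and from 50.7% to 36.0% in TAZKo.

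Changes of sign were all of small, uncalled values. With library size alone Lclat1 in WT was -0.0177, and Crls1 was -0.0391 in WT and -0.0207 in TAZKo. Without the filter Crls1 in WT was -0.0126 and the Ptpmt1 difference of responses 0.0109. With the block the Crls1 difference of responses was -0.0033, and with a lane term Pla2g6 in TAZKo was 0.0104. With 1 sample left out, the genotype difference in hypoxia ranged from -0.0106 to 0.0097 for Hadha, -0.0195 to 0.0921 for Pgs1, -0.0252 to 0.0874 for Triap1 and -0.0039 to 0.0672 for Prelid1, and in normoxia from -0.19 to 0.0099 for Pgs1. The hypoxia response ranged from -0.0189 to 0.11 for Lclat1 in WT, and for Crls1 from -0.12 to 0.15 in WT and -0.011 to 0.0847 in TAZKo. The difference of responses ranged from -0.0184 to 0.18 for Pla2g6, -0.0619 to 0.21 for Tamm41, -0.0795 to 0.0641 for Ptpmt1 and -0.11 to 0.19 for Crls1.

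In the hypoxia genotype comparison and the TAZKo response samples shared only a number (r -0.02 to 0.12 and -0.02 to 0.09), and the block added Tamm41 (-0.25) and Crls1 (0.31) to the first and Lclat1 (-0.22) to the second.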

Other observations

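Genes of other phospholipids were counted beside the shares of all genes called, which were 51% and 43.8% with hypoxia in WT and TAZKo, and 30.4% and 32.8% between genotypes in normoxia and hypoxia. Of 10 genes of phosphatidylcholine synthesis and remodelling, 5 rose and 3 fell with hypoxia in WT, and 3 rose and 2 fell in TAZKo. Between genotypes 1 was higher and 3 lower in TAZKo in normoxia, and 2 were higher and 5 lower in hypoxia. Of 9 genes of phosphatidylethanolamine and phosphatidylserine synthesis, 1 rose and 3 fell with hypoxia in WT, and 1 rose and 4 fell in TAZKo. Between genotypes 1 of the 9 was higher in TAZKo in normoxia and 1 was lower in hypoxia, shares below those of all genes.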
